A study of Mus musculus with 127 samples.

Results

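Chromosome 11 of the mouse is described here as it lay in 10 nuclei of F123 embryonic stem cells, through every 10 kb window of that chromosome that the 20 deposited position files list. The windows were chosen by chromosome name alone, and 59858 of the 1222168 window entries in the files belonged to chromosome 11, which is 4.90% of them. The other 18 autosomes held 1072777 entries. Sequential genome architecture mapping cuts a nucleus into serial slices, called nuclear profiles, amplifies and sequences the DNA of each slice, and so places a stretch of the genome along the cutting axis.

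All nuclei were of the CAST x 129 hybrid line F123, an established line in which the copies of a chromosome come from different mouse strains, and all were grown with leukaemia inhibitory factor (LIF) and moved off their feeder cells. The labels name no treatment and no genetic change, and every nucleus is thus an untreated cell of 1 line. Batch B16F gave 4 nuclei with 12 to 23 profiles each (Cell17, Cell18, Cell19 and Cell20), and batch B18F gave 6 nuclei with 7 to 15 profiles each (Cell25, Cell26, Cell27, Cell28, Cell38 and Cell39). The 1 negative and 4 positive controls have no position file here and were not used. Each nucleus has a file 0 and a file 1, and what the files stand for is not given in the sources used here. Every window in a file has 1 position on the axis in units that the headers do not name, so positions are given as a percent of the nucleus' sampled axis and distances as ratios within a nucleus. The axis has no common direction between nuclei. Read counts are not among the columns, which leaves the sequencing depth of a window unknown, and the number of located windows is given in its place. The nucleus is the replicate. The labels do not tell whether the nuclei are from more than 1 culture, and p-values therefore speak only of these 10 nuclei. The test over nuclei, which flips the signs of their values, asks whether the mean of those values differs from 0.

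Each chromosome of a mammalian nucleus keeps to its own territory, so that stretches of the same chromosome tend to lie nearer to each other than to other chromosomes, and proximity falls with separation along the DNA. Gene-rich chromosomes are often found toward the nuclear interior and gene-poor stretches toward the lamina. Chromosome 11 of the mouse is a gene-rich chromosome that carries the alpha-globin and Hoxb clusters, the type I keratins, and several genes through which LIF keeps embryonic stem cells undifferentiated.

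By the RefSeq table of assembly GRCm38.p6, chromosome 11 has 1609 protein-coding genes over the 11899 windows counted from 3 Mb to the last located window at 121.99 Mb. That is 13.5 protein-coding genes per Mb, the density of rank 2 among the 19 autosomes, against 8.34 per Mb for the other 18 together. Over 1271 matched genes, the 250 bases before the start had a GC content of 56.9% ± 11.1 (SD over genes) and a median of 13 CG dinucleotides, against 55.3% ± 12.1 and a median of 10 over 15185 genes of the other autosomes. At least 10 CG dinucleotides were present in 58.1% of them, against 51.2% elsewhere. By mean GC content of these stretches chromosome 11 ranks 6 of the 19 autosomes. These are descriptions of the reference, with no test.

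A pair of such stretches shows what a single 10 kb window of this chromosome can hold, and how unevenly such windows were found. The sequences are from RefSeq (GRCm38.p6), 5′ to 3′ on the plus strand, with each CG dinucleotide in capitals.
Lif: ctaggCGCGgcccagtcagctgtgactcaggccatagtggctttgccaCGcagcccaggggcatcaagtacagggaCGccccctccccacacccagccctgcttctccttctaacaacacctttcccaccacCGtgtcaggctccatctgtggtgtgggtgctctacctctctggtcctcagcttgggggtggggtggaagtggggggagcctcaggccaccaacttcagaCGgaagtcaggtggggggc
Suz12: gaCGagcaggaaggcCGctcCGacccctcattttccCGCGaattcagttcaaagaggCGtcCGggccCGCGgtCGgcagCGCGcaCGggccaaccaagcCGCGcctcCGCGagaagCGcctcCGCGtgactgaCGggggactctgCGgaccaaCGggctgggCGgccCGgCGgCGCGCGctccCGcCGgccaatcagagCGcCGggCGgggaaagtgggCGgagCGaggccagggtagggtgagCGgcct
The stretch before Lif, the gene of the cytokine in the medium, spans chr11:4257318-4257567 and holds 6 CG dinucleotides. The window around it was located in 2 of 10 nuclei, Cell28 and Cell38. The stretch before Suz12, which encodes a core subunit of Polycomb repressive complex 2, spans chr11:79992856-79993105 and holds 37 CG dinucleotides. Its window was located in 7 of 10 nuclei and in no nucleus in both files. Of all windows of chromosome 11, 15.7% were located in 2 nuclei and 5.36% in 7. A link between CG number and location was not tested.

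The coverage of chromosome 11 did not differ from that of the other autosomes beyond the spread between nuclei. Averaged over the files of a nucleus, the share of its windows that was located was lowest in Cell39 at 10.5%, had a median of 23.2% and was highest in Cell25 at 39.8%. The mean was 25.2% ± 10.1 (SD, n = 10), against 23.4% ± 7.43 for the mean of the other 18 autosomes. Relative to them, chromosome 11 ranged from a density of 0.760 times theirs in Cell19 to 1.34 times in Cell27. The log2 difference, taken from the mean of the other autosomes' log2 values, was 0.09 ± 0.25 (SD, n = 10). It was above 0 in 7 of 10 nuclei, among them Cell39 at 0.015, where the density itself was 0.959 times theirs. An exact two-sided sign-flip test over nuclei gave p = 0.295 and an adjusted p of 0.509 (Benjamini-Hochberg over the 19 autosomes, each set in turn against the mean of the others). Of the 19 autosomes 0 were called (0% at an adjusted p under 0.05). In the plot of coverage and sharing by nucleus, the points of chromosome 11 lie on both sides of those of the other autosomes for coverage.

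**Figure D1:**
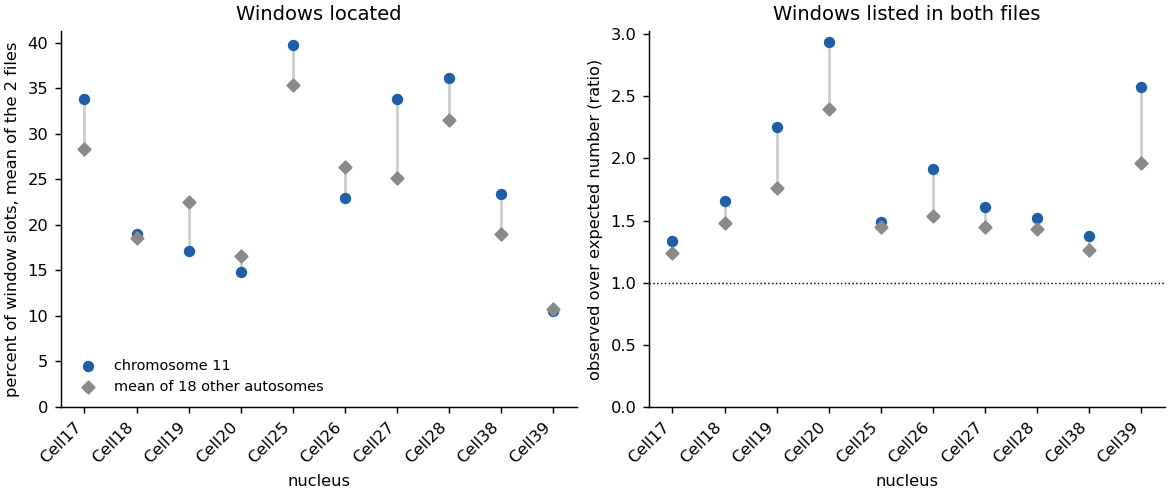
Left, the percent of 10 kb windows located on chromosome 11 (circles) and the mean of the 18 other autosomes (diamonds) in each nucleus. Right, windows listed in both files of a nucleus, as a ratio to their number expected from unrelated files; all 10 circles lie above their diamonds, and every point lies above 1 (dotted line).

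With both files merged, between 18.2% (Cell39) and 56.0% (Cell25) of the windows of chromosome 11 were located in a nucleus, with a median of 38.6%. A window was located in a mean of 3.92 nuclei, against 3.84 on the other autosomes. The distribution was narrower than elsewhere at both ends. Windows located in no nucleus made up 2.38% on chromosome 11 and 4.03% elsewhere, and windows located in 9 or 10 nuclei made up 3.07% and 4.74%. No test was made of this, because neighbouring windows share their slices. The longest stretch located in no nucleus lay at chr11:34550001-34680000, 130 kb inside Dock2, a gene of the immune cell cytoskeleton, and the next was the assembled start of the chromosome, chr11:3000001-3100000. Within a nucleus the longest stretch without a window ran from 210 kb in Cell38 to 550 kb in Cell39.

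All 119 bins of 1 Mb held a located window in every nucleus, and 101 of them in all 20 files. The bins with the most windows were chr11:60000001-61000000 with 719 entries over the 20 files (35.9% of the slots), chr11:61000001-62000000 with 656 and chr11:117000001-118000000 with 646. The first holds 20 protein-coding genes, among them Srebf1, which activates lipid synthesis genes, and Rai1, and the third holds Socs3 and Birc5. The bins with the fewest were chr11:111000001-112000000, around the potassium channel gene Kcnj2, with 291 entries and 2 protein-coding genes centred in it, chr11:91000001-92000000 with 297 and 1 gene, Kif2b, and chr11:110000001-111000000 with 336 and 6 genes. Over 118 full bins the Spearman correlation of gene number and located windows was 0.32, a description across bins that share the same libraries.

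**Figure D2:**
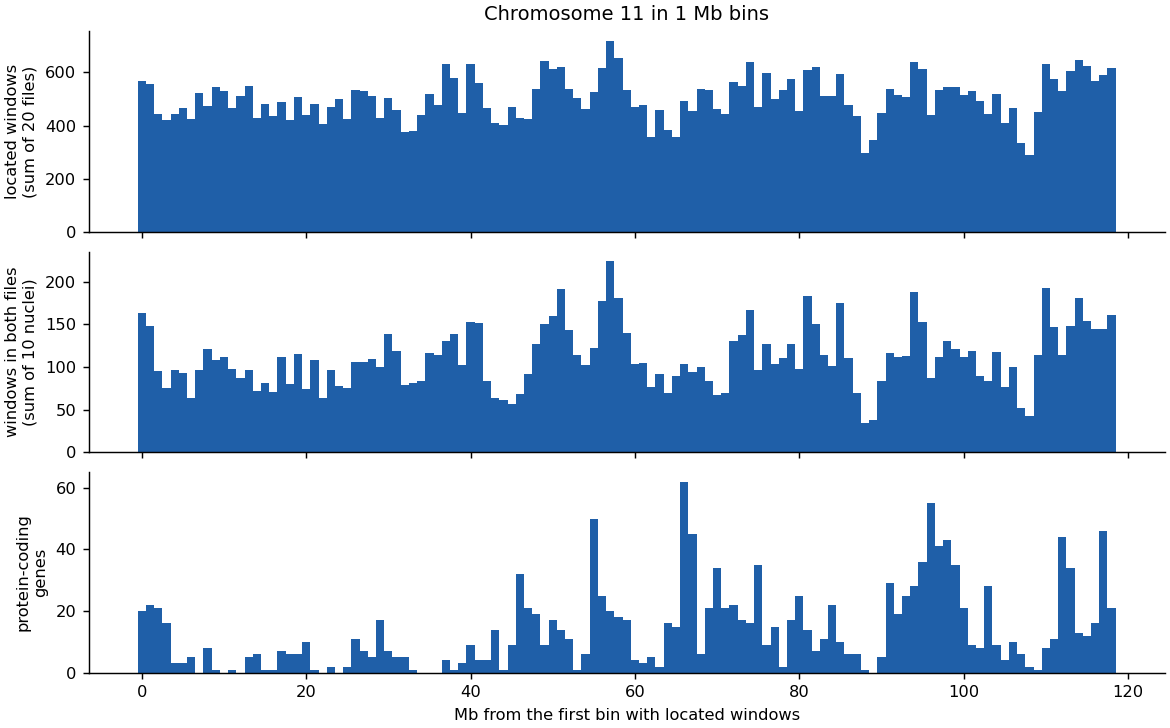
Located windows summed over 20 files (top), windows listed in both files of a nucleus summed over 10 nuclei (middle) and protein-coding genes (bottom) in 1 Mb bins of chromosome 11, by distance in Mb from the first bin with located windows. Located windows per full bin run from 291 to 719, and the 3 lowest bins hold 1 to 6 genes.

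The 39 bins with the most protein-coding genes (17 to 62 each) held 532 entries per bin over the 20 files, and the 39 with the fewest (0 to 5 each) held 465. The ratio of gene-dense to gene-poor bins was lowest in Cell28 at 0.849 and highest in Cell38 at 1.56, with a mean of 1.16 ± 0.205 (SD, n = 10), and it was above 1 in 7 nuclei, exactly 1 in Cell20 and below 1 in Cell26 and Cell28. The log2 ratio of 0.19 ± 0.25 gave p = 0.0391 by the exact sign-flip test and an adjusted p of 0.0825, while 6 of the 19 autosomes were called (31.6%). Without Cell28 it was 0.24, with an adjusted p of 0.0495, and without any other single nucleus the adjusted p was 0.0742 to 0.165. Against the other autosomes the ratio of chromosome 11 did not differ beyond the spread, with a log2 difference of 0.02 ± 0.25, higher in 6 of 10 nuclei, and an adjusted p of 0.828, where 3 of 19 autosomes (15.8%) were called.

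Windows of chromosome 11 stood in both files of a nucleus more often than those of the other autosomes, in every nucleus. Such shared windows numbered 334 in Cell39, the fewest, and 2814 in Cell25, the most. Their expected number for files with no relation is the window number of file 0 times that of file 1, divided by the number of windows on the chromosome. The observed number was lowest against it in Cell17, at 1.33 times, had a median of 1.63 times and was highest in Cell20, at 2.94 times. The mean was 1.87 ± 0.548 (SD, n = 10), against 1.60 ± 0.353 for the other autosomes. Each nucleus had a higher value on chromosome 11, by as little as 1.49 against 1.45 in Cell25 and as much as 2.57 against 1.96 in Cell39, although the ranges over nuclei overlap. The comparison is with a mean, and single autosomes could be higher. Among the 19 autosomes chromosome 11 ranked from 1, the highest, in Cell19, Cell20 and Cell26 to 6 in Cell25. The log2 difference of 0.20 ± 0.13 (SD, n = 10) gave p = 0.00195 in the exact two-sided sign-flip test, the smallest p that 10 nuclei allow, and an adjusted p of 0.0186.

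Of the 19 autosomes 3 were called for this measure (15.8%). Chromosome 11 had the highest mean of the 19, chromosome 9 was also called higher with a log2 difference of 0.12 ± 0.08 in 10 of 10 nuclei, and chromosome 3 was called lower at -0.14 ± 0.17. The excess on chromosome 11 was positive in all 4 nuclei of B16F, with 0.23 ± 0.12, and in all 6 of B18F, with 0.18 ± 0.14. Neither batch alone passed the threshold, with adjusted p-values of 0.475 and 0.198, and 4 nuclei cannot give a p under 0.125. Leaving out any single nucleus kept the difference between 0.18 and 0.22 with an adjusted p of at most 0.0371.

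The size of this excess depended on the scale at which the expected number was computed, in settings added after the values were seen. Over windows located in any file, the log2 difference was 0.23, with an adjusted p of 0.0124. Computed within 1 Mb bins it was 0.15, higher in 9 of 10 nuclei, with an adjusted p of 0.0742, and the call was lost. Within 100 kb bins it was 0.03, higher in 5 of 10 nuclei, with p = 0.559 in the exact sign-flip test and an adjusted p of 0.860. What places the windows of the files in the same stretches was not tested.

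The windows most often listed in both files lay in the first assembled stretch of the chromosome, over Sfi1, a gene for a centrosome protein: chr11:3180001-3190000 and the next window were in both files in 8 nuclei and located in all 10. The sequence of this stretch was not read, so it was not checked for repeats or for how uniquely reads map there. Another at chr11:54140001-54150000, with no protein-coding gene, was in both files in 7. Windows of Myo15, an unconventional myosin of hair cells, and of Phf12, a chromatin regulator, reached 6. In all, 63 windows were in both files in 5 or more nuclei, 0.529% of chromosome 11 against 0.278% on the other autosomes.

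Among the windows in both files, the 2 positions were identical (within 1e-06 axis units) for 8.62% in Cell38, for a median of 57.7% and for 81.4% in Cell39. On the other autosomes the median was 53.1%, and the share was higher on chromosome 11 in 7 of 10 nuclei. Of adjacent windows that each stand in 1 file only, between 82.2% (Cell27) and 96.5% (Cell38) of pairs were in the same file. From the windows in each file alone, neighbours with no relation would give a median of 52.8% and at most 78.1% (Cell20), and the share was above that value in 10 of 10 nuclei. The mean was 91.5% ± 4.34 (SD, n = 10) on chromosome 11 and 91.3% ± 5.66 on the other autosomes, and the share was higher on chromosome 11 in 4 of 10 nuclei. The longest run of such windows in the same file spanned 0.890 Mb in Cell28 and 3.99 Mb in Cell26.

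File 1 held 42.4% (Cell26) to 75.4% (Cell20) of the entries of chromosome 11, with a mean of 58.0% ± 12.8 against 61.1% ± 12.04 on the other autosomes. The share was lower on chromosome 11 in 9 of 10 nuclei, by 3.08 ± 2.44 percentage points, with p = 0.00586 in the exact sign-flip test but an adjusted p of 0.111, and 0 of 19 autosomes (0%) were called. Positions lying between the slice grid of 0.2 axis units made up 24.4% ± 8.60 of its entries and 26.6% ± 7.08 elsewhere. This share was lower in 9 of 10 nuclei, with an adjusted p of 0.161 where 1 of 19 autosomes (5.26%) was called. Without Cell38, the only nucleus in which it was higher, the difference was -2.91 points with an adjusted p of 0.0247. Leaving out any other single nucleus gave adjusted p-values from 0.167 to 0.322.

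Along the slicing axis chromosome 11 had no common place. The mean position of its windows was 32.2% of the axis in Cell28, had a median of 44.7% and was 91.1% in Cell39, where the other autosomes averaged 85.0%. Ordered by mean position among the 19 autosomes, it stood at an end of the order in Cell19 and Cell27, next to an end in Cell26, and at rank 10 in Cell39. How far it lay from the middle of the sampled axis, as a percentile over all 1 Mb bins of the nucleus, averaged 33.1 in Cell26, had a median of 50.2 and reached 60.2 in Cell25. The mean was 50.1 ± 7.41 (SD, n = 10), against 50.2 for the other autosomes. Chromosome 11 lay nearer the midpoint in 5 nuclei and farther in 5, with a difference of -0.10 ± 7.70 percentile points, p = 0.969 in the exact sign-flip test and an adjusted p of 0.969. Its gene-dense bins lay 0.14 ± 11.3 points farther out than its gene-poor bins, with an adjusted p of 0.988.

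**Figure D3:**
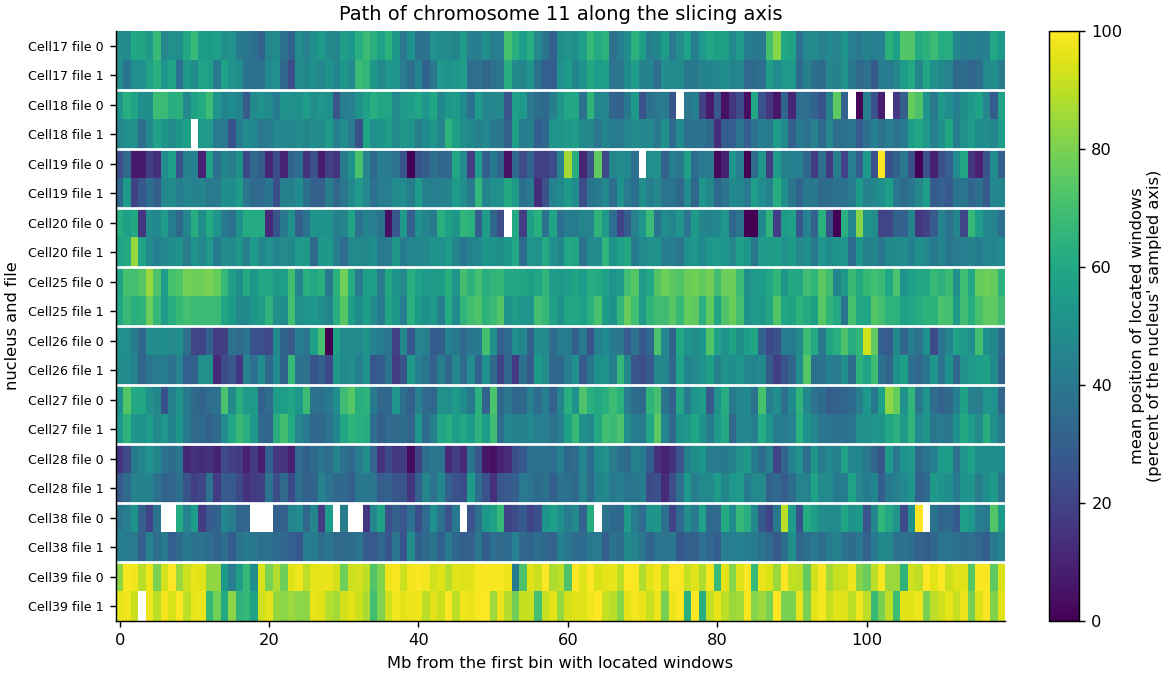
Path of chromosome 11 in each nucleus and file: the colour is the mean position of the located windows of a 1 Mb bin as a percent of the sampled axis, by distance in Mb from the first bin with located windows; white bins hold no window in that file. Cell39 lies near 100% for most of its length, and in Cell28 both files move from low to higher positions along the chromosome.

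Averaged in 10 Mb segments, the position moved over 9.19% of the axis in Cell38, a median of 15.5% and 30.6% in Cell28. In Cell28 the segment from 13 to 23 Mb lay lowest, at 18.4%, and that from 113 Mb to the end lay highest, at 49.1%, and the Spearman correlation of position and place along the chromosome was 0.54 in file 0 and 0.55 in file 1. In Cell26 the segment from 13 to 23 Mb was at 27.6% and that from 93 to 103 Mb at 55.8%. In Cell39 the segment from 13 to 23 Mb stood at 72.5% and the rest between 86.1% and 97.2%. In Cell27 that segment was at 40.2%, close to those from 53 to 63 Mb at 40.4% and from 93 to 103 Mb at 40.5%. In the other 6 nuclei another segment was lowest. As the axis has no common direction, a lowest segment cannot be matched between nuclei. Paths were not compared between nuclei by a test. The absolute correlation averaged 0.19 ± 0.15 on chromosome 11 and 0.18 ± 0.05 elsewhere, a difference of 0.02 ± 0.16 with an adjusted p of 0.941.

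The 2 files of a nucleus traced similar paths to different degrees. Over 1 Mb bins the Spearman correlation of file 0 and file 1 was lowest in Cell20 at 0.12, had a median of 0.54 and was highest in Cell28 at 0.82. Over windows listed in 1 file only it ran from -0.07 in Cell20 to 0.47 in Cell28, with a median of 0.25. These correlations are descriptions across bins of the same slices. The axial distance between the files at the same bin was 0.686 ± 0.182 times that between bins of different autosomes, against 0.650 ± 0.166 elsewhere, with an adjusted p of 0.408.

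Adjacent 1 Mb bins in the same file differed by a median of 0.095 axis units in Cell28 and 0.288 in Cell17. The spread of bin positions, as an SD, was lowest in Cell26 at 0.157 axis units and highest in Cell17 at 0.409, and its mean of 0.244 ± 0.088 compares with 0.227 ± 0.079 for the other autosomes. It was wider on chromosome 11 in 7 of 10 nuclei, by 0.10 ± 0.16 on the log2 scale, with p = 0.0703 in the exact sign-flip test and an adjusted p of 0.334. In file 0 alone it was wider by 0.19, with an adjusted p of 0.0371, a call that the files together did not give.

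Bins of chromosome 11 lay nearer to each other than to bins of other chromosomes at the shortest separations. At 1 Mb the axial distance was 0.673 times that between bins of different autosomes in Cell17, the lowest, and 0.837 times in Cell20, the highest, so that all 10 nuclei were below 1. The log2 mean was -0.43 ± 0.12 (SD, n = 10), with p = 0.00195 in the exact sign-flip test, the smallest possible, and an adjusted p of 0.0101 over the 129 combinations of autosome and separation that could be tested, of which 62 (48.1%) were called. At 2 Mb it was -0.26 ± 0.15, again below 0 in 10 of 10 nuclei and with an adjusted p of 0.0101. Where a single window, the nearest to the centre, stood for each bin, the values were -0.18 and -0.15, lower in 8 of 10 nuclei each, and the calls were lost, with adjusted p-values of 0.210 and 0.252. In B18F alone, where 6 nuclei cannot give a p under 0.0312, they were -0.44 and -0.26 with an adjusted p of 0.101, and in B16F alone -0.41 and -0.24 with an adjusted p of 0.278.

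Beyond 2 Mb chromosome 11 approached the distance between different chromosomes. At 5 Mb the log2 value was -0.12 ± 0.17, with an adjusted p of 0.0982. Values of -0.05 ± 0.15 at 10 Mb (adjusted p 0.373) and -0.12 ± 0.21 at 20 Mb (0.137) were followed by -0.01 ± 0.20 at 50 Mb (0.872) and 0.01 ± 0.30 at 100 Mb (0.962). Without Cell27, the values at 5 and 20 Mb were both -0.16 with an adjusted p of 0.0373. Without any other single nucleus neither was called, with adjusted p-values of at least 0.105 at 5 Mb and 0.110 at 20 Mb. At 100 Mb a single nucleus stood apart: in Cell28 the log2 value was 0.79, and without it the mean was -0.08.

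**Figure D4:**
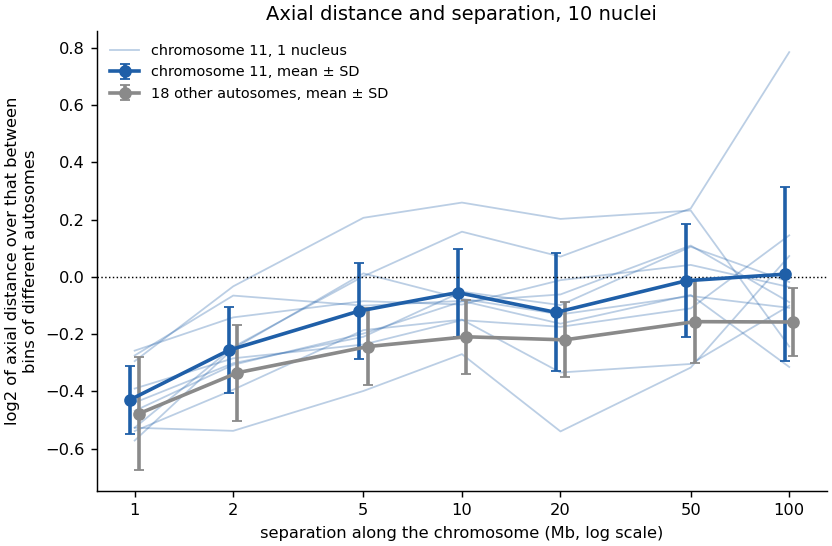
Axial distance between 1 Mb bins of the same chromosome as log2 of its ratio to the distance between bins of different autosomes (0, dotted line), by separation in Mb on a log axis. Thin lines are chromosome 11 in single nuclei, and points with bars are the mean ± SD over 10 nuclei for chromosome 11 and for the mean of the other 18 autosomes; the mean of chromosome 11 is the higher at each separation, and its bars overlap those of the others.

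At each of the 7 separations the mean distance within chromosome 11 was larger than the mean within the other autosomes, and 0 of the 129 tests were called (0%). On the log2 scale the difference was 0.05 ± 0.12 at 1 Mb, rising to 0.08 ± 0.12 at 2 Mb and 0.12 ± 0.17 at 5 Mb. It was 0.15 ± 0.17 at 10 Mb. At 10 Mb chromosome 11 was the more distant in 9 of 10 nuclei, most in Cell28 at 1.12 times the distance between different autosomes against 0.824 elsewhere, and Cell20 was the exception. This gave p = 0.00977 by the exact sign-flip test and an adjusted p of 0.371. The differences at 20, 50 and 100 Mb were 0.10 ± 0.16, 0.14 ± 0.19 and 0.17 ± 0.35, with adjusted p-values of 0.450, 0.371 and 0.565. With a single window per bin the difference at 1, 2, 20 and 50 Mb changed sign, to -0.06, -0.05, -0.02 and -0.04. Chromosomes 16 to 19 are too short for a separation of 100 Mb and are not among the others there. The slope of log2 distance on log2 separation was 0.06 ± 0.04 on chromosome 11 and 0.04 ± 0.02 elsewhere, with an adjusted p of 0.523. For chromosomes 16 to 19 the slope was fitted without 100 Mb. The outermost 10 Mb at the ends of the chromosome lay 0.845 ± 0.211 times as far apart as bins of different autosomes, against 0.918 ± 0.092 elsewhere, nearer on chromosome 11 in 7 of 10 nuclei with an adjusted p of 0.445.

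Within single slices, taken here as positions on the slice grid, the share of chromosome 11 was uneven. Grid positions and profiles do not always match in number. Cell18 has 17 positions and 16 profiles, and Cell38 has 11 positions and 10 profiles. Over positions on the slice grid, in slices with at least 500 autosomal windows, its share of the autosomal windows was highest against the nucleus' own average in slice 1 of Cell19, at 2.66 times (538 windows, 10.8% of the slice), and in slice 17 of Cell17, at 2.40 times. It was lowest in slice 6 of Cell25, at 0.298 times (409 windows, 1.73%). The ratio of the highest to the lowest slice was 1.25 in Cell38, 1.92 in Cell27 and up to 7.51 in Cell17. In Cell39 a single slice held 66.1% of the on-grid windows of chromosome 11, and 64.3% of all autosomal ones, and in Cell27 a slice held 61.0% against 46.7%.

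No chromosome lay nearer to chromosome 11 along the axis, or farther from it, than others beyond the spread between nuclei. Distances between pairs of chromosomes were centred on both chromosomes' own averages in the nucleus, and 0 of 190 pairs were called (0%). The nearest on average was chromosome 9, at -0.05 ± 0.08 on the log2 scale (3.27% nearer than their averages give) and nearer in 8 of 10 nuclei, with p = 0.107 by the exact sign-flip test. Chromosome 2 followed at -0.03 ± 0.11 and chromosome 15 at -0.02 ± 0.13. The farthest was chromosome 6, at 0.07 ± 0.10 and farther in 9 of 10 nuclei, with p = 0.0664, followed by chromosome 7 at 0.04 ± 0.07 and chromosome 16 at 0.03 ± 0.05. All 6 had an adjusted p of 0.968. Means next to each other in this order differed by less than their SDs and were not compared by a test. Within a nucleus the values reached -0.38 (chromosome 8 in Cell26) and 0.25 (X in Cell26).

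**Figure D5:**
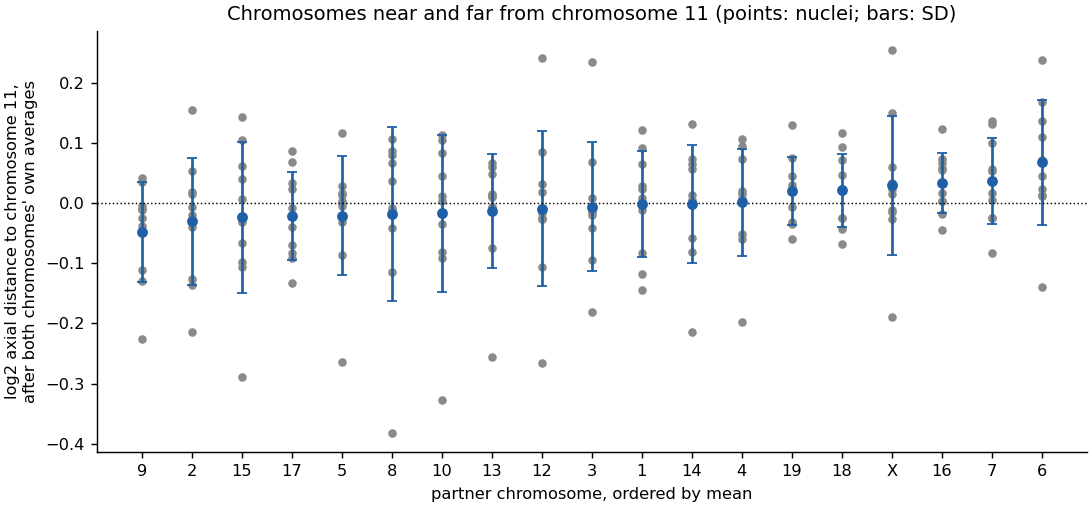
Log2 axial distance between chromosome 11 and each partner chromosome after removing both chromosomes' own averages, ordered by mean; grey points are nuclei, blue points and bars the mean ± SD of 10 nuclei. The means run from -0.05 (chromosome 9) to 0.07 (chromosome 6), and every partner has nuclei on both sides of 0.

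The gene clusters of chromosome 11 were found in some nuclei and missed in others. Over its 1609 protein-coding genes, the median gene had a located window in 7 of 10 nuclei, 186 genes in all 10 and 16 in none, and 25.2% of all window slots in the 20 files were filled. These counts rise with the length of a gene, so clusters are also given by the share of their slots that was filled.

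Among the lists, the Polycomb and Hoxb genes had the largest shares of slots filled. All 10 Hoxb genes, which pattern the body axis from chr11:96194316-96368254, were located in at least 1 nucleus, with 30.0% of the slots filled, from Hoxb13 in 2 nuclei to Hoxb7 in 9. The cluster also carries microRNAs, shown because their windows differ in how often they were found. The mature sequences are from RefSeq (GRCm38.p6), with the seed, bases 2 to 8, in capitals.
mmu-miR-196a-5p: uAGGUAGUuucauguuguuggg
mmu-miR-10a-5p: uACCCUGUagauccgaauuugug
The window of miR-196a-5p (chr11:96265187-96265208, plus strand) was located in 2 nuclei, both times in both files. The window of miR-10a-5p (chr11:96317186-96317208, plus strand), which lies beside Hoxb4, was located in 6 nuclei and in both files in 2. Over the whole chromosome, 15.7% of windows were located in 2 nuclei and 8.80% in 6, and the difference was not tested.

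The Polycomb genes Suz12, Ezh1, Cbx2 and Cbx8, whose products write and read a repressive histone mark, had 30.8% of their slots filled, with Suz12 located in 10 nuclei, Ezh1 in 9, Cbx8 in 8 and Cbx2 in 6. The Th2 cytokine genes Il4, Il13, Il5, Csf2 and Il3 had 29.0% filled, with Il4 located in 6 nuclei. The tumour suppressors Flcn, Trp53, Nf1, Brca1 and Axin2 had 25.9% filled. Nf1, a Ras regulator that spans 26 windows, was located in all 10 nuclei and Trp53, which encodes p53, in 5.

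All 27 type I keratin genes, for the filaments of epithelia and hair, were located, with 24.9% of slots filled, from Krt222 in 1 nucleus to Krt31 in 8. Of the 83 olfactory receptor genes 80 were located, with 23.1% filled and a median of 4 nuclei. All 11 chemokine genes were located with 18.3% filled, and the 6 myosin heavy chain genes of muscle with 17.5%. The 3 alpha-globin genes at chr11:32276600-32297310 had 16.7% filled and were seen in 5 nuclei in all, Hba-a1 in 2 of them. The imprinted loci Grb10, Zrsr1 and Commd1 had 15.5% filled. Of the single genes, Rara, the retinoic acid receptor, was located in all 10 nuclei with 38.3% of its slots filled, Meis1 in 9 with 17.5%, Top2a in 5 with 11.2%, and Sox9 and Nog in 4 each. The shares are descriptions, and none was tested against the chromosome.

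LIF signalling is spread over the whole length of chromosome 11. LIF binds its receptor, STAT3 carries the signal to the nucleus, and SOCS3 is induced and dampens it. Its 7 genes here had 21.5% of their slots filled. Lif was located in 8 nuclei, its neighbour Osm, a related cytokine, in 4, Stat5b in 10, Stat5a in 9, Stat3 in 8, the adaptor Grb2 in 8 and Socs3 in 5. In Cell39 the bin of Lif stood at 99.0% and 97.8% of the axis in the 2 files, that of Stat3 at 92.2% and 95.6% and that of Socs3 at 74.0% and 79.0%. In Cell28 Lif stood at 22.97% and 34.5%, Stat3 at 57.6% and 42.2% and Socs3 at 57.5% and 52.0%.

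The bins of Lif and Stat3 are 96 Mb apart. Their axial distance was 0.317 times the chromosome 11 average at that separation in Cell39, the lowest, had a median of 0.911 times and was 2.13 times in Cell27, the highest, with 6 of 10 nuclei below the average. Lif and Socs3, 113 Mb apart, had a median of 1.15 times with 4 of 10 below, and Stat3 and Socs3, 17 Mb apart, a median of 1.05 times with 5 of 10 below. The nuclei lie on both sides of the average for each of these pairs. Chromosome 11 has 102 bin pairs at 17 Mb, 23 at 96 Mb and only 6 at 113 Mb, so the average at 113 Mb rests on few pairs.

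As a percentile of distance from the midpoint, averaged over nuclei, the bins of the named loci ran from 39.9 ± 23.04 for Meis1 to 66.0 ± 17.8 for Csf2 and Il3 (SD, n = 10) among the genes named outside the olfactory receptors, around the mean of 50.1 for all bins of chromosome 11. The SD over nuclei exceeded 16 percentile points for each of these genes.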

How the data were processed

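Whole-genome amplified DNA of the nuclear profiles of 10 F123 cells was read on the HiSeq X platform, as the labels' protocols state. Trim Galore (0.6.4), Picard and Bowtie2 (2.3.5) and the mm10 build are named, without their roles, in the submitters' processing notes. How reads became positions is not given in the sources used here. The authors deposited 2 files per cell, each with 10 kb windows and a position whose unit is another unit than a count and is not named in the file headers.

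Windows on Y, and those on none of chromosomes 1 to 19, X and Y (2789 entries), were left out of all comparisons. They are counted in the total of window entries and in the ends of the axis used for percent positions. Positions were averaged in 1 Mb bins per file, and distance is the absolute difference between bins. Chromosome lengths are the end of the last located window, counted from 3 Mb. Chromosome 11 was set against the mean of the other 18 autosomes in each nucleus, at 100 Mb without chromosomes 16 to 19. The 10 differences were tested with an exact two-sided sign-flip permutation test. Benjamini-Hochberg adjustment was over the same test of each autosome (over 129 autosome and separation combinations, and over 190 chromosome pairs). Batches were compared by an exact permutation test, and none of the results differed at an adjusted p under 0.05 (lowest unadjusted p 0.176).

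Gene positions, promoters and microRNAs are those of RefSeq (GRCm38.p6). The loci, fixed as lists, the 3 fullest and 3 emptiest bins and the 3 nearest and 3 farthest partners were named whatever their values. A member of the Polycomb list is not reported here and was left out of its values. The chromosome, lists and tests were chosen with earlier results of these data known. Python 3.11.15, numpy 2.4.6 and pandas 2.3.3 were used. Simulated data with a raised spread and raised file sharing on chromosome 11 were run through the same computation. No change was planted in the other results, and the simulated positions did not follow the slice grid. Alternatives tried were smaller bins, a minimum of 5 windows per bin, a single window per bin, on-grid positions, each file, each batch, each nucleus left out, the 5 autosomes nearest in length, and other centres, spreads, centrings and gene sets.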

Additional observations from a re-analysis of the deposited data

Results flagged for a closer look

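Of 20 results checked over the 10 nuclei, 1 held a value that stood apart from the others. In Cell28 the log2 ratio of located windows in gene-dense to gene-poor bins of chromosome 11, minus that of the other autosomes, was -0.59, and the next lowest nucleus, Cell19, was at -0.08. The gap was 0.522 of the whole range over the 10 nuclei, above the critical 0.466, and chance gives such a value in about 1 in 20 groups. In Cell28 the ratio itself was 0.849 on chromosome 11, rank 19 of the 19 autosomes, and 1.27 on the others.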

How the results depend on the processing

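Of 663 values recomputed under 29 settings, 590 kept their direction and their side of the threshold, 56 changed sign, 11 lost a call and 6 gained it. Every sign change was in a result that was not called, among them differences that had a p near 0.05, such as the distance at 50 Mb against the other autosomes (0.14, exact sign-flip p = 0.0469) and the within-chromosome distance (0.11, p = 0.0723). The causes were not tested. The windows located in a nucleus limit the precision of a bin's position, and 10 nuclei limit the tests.

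The excess of shared windows lost its call within 1 Mb bins (0.15), within 100 kb bins (0.027), in B16F alone (0.23) and in B18F alone (0.18). The shorter distance at 1 Mb than between different chromosomes lost it with a single window per bin (-0.18), in B16F alone (-0.41) and in B18F alone (-0.44). That at 2 Mb lost it with a single window per bin (-0.15), in file 0 alone (-0.20), in B16F alone (-0.24) and in B18F alone (-0.26). In file 0 alone the spread along the axis passed the threshold (0.19), and in file 1 alone the distance at 5 Mb against different chromosomes did (-0.17).

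With 250 kb bins, sign changes were seen for file agreement (-0.026), the distance from the axis midpoint (0.25 points) and the midpoint distance of gene-dense against gene-poor bins, both relative to the other autosomes (-0.74 points) and on its own (-1.21 points). A minimum of 5 windows per bin gave 0.39 points for the midpoint distance and 0.011 for the distance at 50 Mb against different chromosomes. A single window per bin gave -0.013 for file agreement, -0.0072 for the within-chromosome distance, -0.019 at 100 Mb against different chromosomes and 0.0030 for chromosome 15. Against the other autosomes it gave -0.058 at 1 Mb and -0.051 at 2 Mb, then -0.020 at 20 Mb and -0.038 at 50 Mb. Windows on the slice grid gave a midpoint distance of 0.066 points and -0.00080 at 100 Mb. File 0 alone gave 0.87 points for the midpoint distance, -0.50 points for gene-dense bins on their own, 0.036 at 10 Mb and 0.042 at 50 Mb against different chromosomes. File 1 alone gave -0.049 for the coverage of gene-dense bins relative to other autosomes and -0.071 at 100 Mb. The 5 autosomes nearest in length gave 0.61 points for the midpoint distance, and the median position as centre 2.94 points.

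B16F alone gave -0.044 for coverage, 0.85 points for the midpoint distance, -0.019 at 1 Mb against other autosomes and -0.0039 at 100 Mb against different chromosomes. B18F alone gave -0.046 for the coverage of gene-dense bins, -1.96 and -4.44 points for their midpoint distance relative to the other autosomes and on its own, and 0.0015 for chromosome 15. Centring on the partners of chromosome 11 alone turned chromosome 16 to -0.055.

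Leaving out each nucleus in turn moved the between-slice share between -2.91 and -1.93 points and the midpoint distance between -1.44 and 1.76 points. The coverage of gene-dense bins moved between -0.022 and 0.085 relative to other autosomes and between 0.14 and 0.24 on its own. Their midpoint distance moved between -0.83 and 2.47 points, and between -1.36 and 2.70 points on its own. The drift moved between -0.020 and 0.040. Distances against different chromosomes moved between -0.16 and -0.088 at 5 Mb and between -0.16 and -0.078 at 20 Mb. For 50 Mb the bounds were -0.041 and 0.021, and for 100 Mb -0.076 and 0.046. Chromosome 15 moved between -0.042 and 0.0059. The distances at 1 and 2 Mb and the excess of shared windows kept their calls without any single nucleus.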

Other observations

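Besides the LIF genes, 3 other pairs of named loci were looked at without a test, after the files had been examined. The bins of Hba-a1 and Hoxb1, 64 Mb apart, lay nearer to each other than the average of chromosome 11 at that separation in 10 of 10 nuclei, from 0.187 times the average in Cell18 through a median of 0.519 to 0.942 in Cell28. Of the 55 bin pairs at 64 Mb on this chromosome, 2 (3.64%) were below the average in all 10 nuclei, and the median pair was below it in 6. Trp53 and Brca1, 32 Mb apart, were below in 6 of 10 nuclei with a median of 0.808, and Hoxb1 and Krt10, 3 Mb apart, in 6 of 10 with a median of 0.769.

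The evenness of coverage along chromosome 11 resembled that of the other autosomes in size. The coefficient of variation of located windows per 100 kb bin was 0.962 ± 0.234 (SD, n = 10) on chromosome 11 and 0.988 ± 0.202 elsewhere, and per 1 Mb bin 0.549 ± 0.151 and 0.555 ± 0.116, higher on chromosome 11 in 4 of 10 nuclei at both sizes.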
